A study of Mus musculus with 8 samples.

Results

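White fat of mice was compared 8 hours after a single dose of CL 316243 with fat that had not received the drug, gene by gene across the genome, in wild type mice and in mice lacking Ppara. The comparison used 4 of the 8 arrays of the series: 1 control array and 1 array at 8 hours in each genotype, chosen by their labels. CL 316243 was given at 30 nmol. The other 4 arrays were at 3 and 6 days of infusion with 3 nmol per hour. They entered only the lower limit set on values, the filter on dim probe sets, the choice of probe set per gene and the estimate of the spread. Each array held RNA of epididymal white adipose tissue, hybridised to Affymetrix U74Av2 probe sets. The wild type control had no drug, by its labels. They do not say whether a vehicle was given, whether an array held 1 animal or a pool, or how old the mice were. They name the knockout genotype but not the part of Ppara that was removed.

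CL 316243 selectively activates the β3-adrenergic receptor, found in rodents mainly on fat cells. The receptor couples through a stimulatory G protein to adenylyl cyclase, so that cyclic AMP rises, protein kinase A phosphorylates the lipases and coat proteins of the lipid droplet, and fatty acids are released. Protein kinase A also phosphorylates CREB, a transcription factor, and white fat answers such stimulation with thermogenic and inflammatory gene expression. PPARα, the product of Ppara, is a nuclear receptor for fatty acids that drives genes of their oxidation.

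After a filter on dim probe sets 6129 genes were compared, each by its brightest probe set. Values are intensities on a linear scale as deposited, with everything under 171 set to 171, the floor, at which a value is an upper limit. Changes are differences of log2 intensity, 8 hours minus control, averaged over both genotypes and given with the standard error of the limma fit. A change with one side at the floor is given as "at least" for a rise and as "or lower" for a fall. A gene was called where its limma adjusted p lay under 0.05 and it changed in the same direction in each genotype. The arrays shared nearly one distribution of values, with a median of 320 on every array, so rises and falls balance by construction and a shift of the whole transcriptome cannot be seen. The adipocyte gene Adipoq, adiponectin, read 57089 and 51664 on the control arrays. The 5'/3' ratio of the Gapdh control probes, a measure of RNA quality, was 0.788 on the knockout control and 1.04 to 1.15 on the other 3. Ppara itself read 395 in the wild type control and 795 at 8 hours, against 214 and 254 in knockout. On the control arrays, the summed intensity of 15 pancreas genes was 88026 in wild type and 6362 in knockout, and that of 16 epididymis and testis genes was 32001 and 209992. At 8 hours the pancreas list had a median change of -3.35 in wild type and 2.01 in knockout, and 1 of its members was lower in both genotypes. The epididymis and testis list had medians of 0.03 and -1.31, with 7 members lower in both.

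By this rule 396 genes rose, 6.46% of those tested, and 508 fell, 8.29%. The median size of a called change was 1.35 for rises and -1.27 for falls. At least 4-fold changes were found in 94 of the genes that rose and in 82 of those that fell. A control array was at the floor in 84 of the genes that rose, and an 8-hour array in 56 of those that fell. A probe set could pass the filter through its 8-hour arrays alone, and a gene at the floor in both controls cannot fall. Values set to the floor are equal on all arrays, so the standard errors and adjusted p of such genes may be too small. Without the test, 341 genes (5.56%) were at least 2-fold higher at 8 hours in each genotype and 297 (4.85%) at least 2-fold lower. Both 8-hour arrays lay above both controls for 1834 genes (29.9%) and below both for 1915 (31.2%). All 396 genes that rose and 506 of the 508 that fell were among these. For a called gene, arrays that do not overlap therefore add nothing to the call. Later statements of this kind only describe the values. The change had the same sign in both genotypes for 68.9% of genes, whether they passed or not. Over the 6129 genes the changes in wild type and knockout, which use separate control arrays, had a Pearson correlation of 0.66 and a Spearman correlation of 0.62. Genes are not independent replicates, and this describes 1 pair of arrays per genotype. Of 37 genes that moved at least 2-fold in opposite directions, 23 were higher in wild type and lower in knockout and 14 the reverse.

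The calls rest on few arrays. Without the knockout array at 8 hours limma called 0 genes, with 1348 at an unadjusted p under 0.05. Without the knockout control it called 12 rises and 8 falls, and without the wild type array at 8 hours 19 and 8. The counts were 189 and 268 without the wild type control. Both 3-day arrays matter as well, because they help to estimate the spread: without both of them 123 genes rose and 157 fell, and the same counts held without either one, since the array left then fits its own time exactly. The 4 arrays of the comparison alone left 1 residual degree of freedom and 0 calls, with 1662 genes at an unadjusted p under 0.05. Counts per gene list below carry the same dependence.

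**Figure D1:**
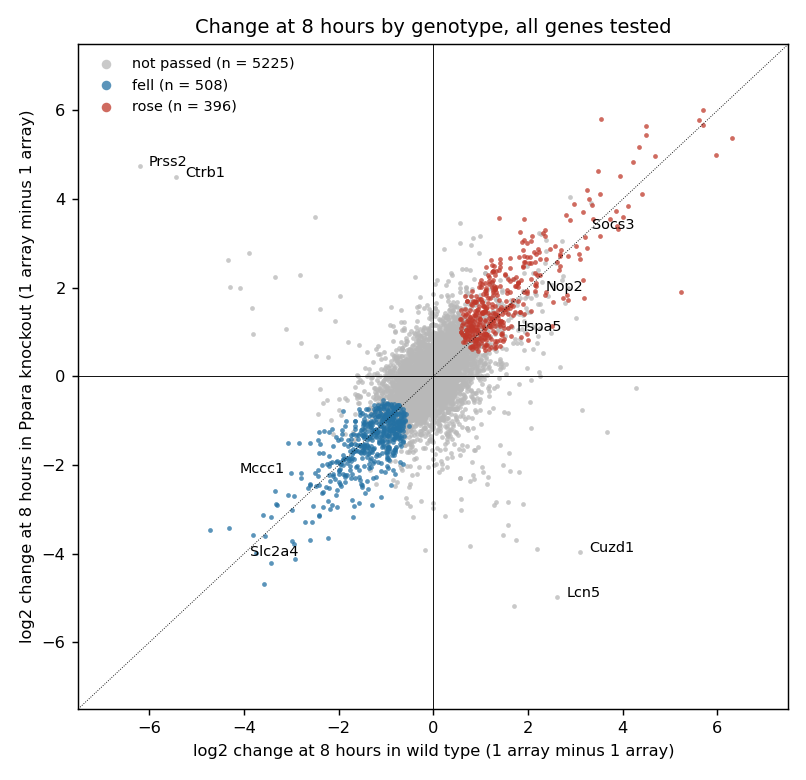
Log2 change at 8 hours in wild type (x axis) and in Ppara knockout (y axis), each 1 array minus 1 control array, for the 6129 genes tested; red points are the 396 genes that rose, blue the 508 that fell, grey the rest, and the dotted line marks equal change. Called genes lie in the upper right and lower left, while pancreas genes such as Prss2 and Ctrb1 and the genes Lcn5 and Cuzd1 lie far out in the other quadrants.

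The list with the most genes that rose was that of ribosome biogenesis. Ribosomes are built in the nucleolus, where ribosomal RNA is transcribed, modified by small nucleolar ribonucleoproteins and assembled with proteins into subunits. Of 54 measured genes of ribosome biogenesis 20 rose. In both genotypes 45 were higher and 1 was lower, where 33.5% and 35.4% of all genes tested were. The median of the list was 0.80 (0.61 in wild type, 1.06 in knockout), against -0.02 for all genes. Nop2, a methyltransferase of ribosomal RNA, went from 330 to 1503 in wild type and 394 to 1927 in the knockout. Both 8-hour arrays were far above both controls, a change of 2.24 ± 0.20. Gnl3, which encodes nucleostemin, a nucleolar GTPase, rose from 366 to 1631 in wild type and 495 to 2497 in the knockout, by 2.25 ± 0.31. The paired scaffold proteins of the box C/D ribonucleoproteins moved together. Nop56 rose from 630 to 1673 in wild type and 529 to 2947 in the knockout, by 1.94 ± 0.38. Nop58 rose from 379 to 1162 in wild type and 387 to 1724 in the knockout, by 1.89 ± 0.28. Fibrillarin, the methyltransferase of the same particles (Fbl), rose by 1.49 ± 0.20. Ncl (nucleolin) went from 7111 to 15217 in wild type and 6874 to 18819 in the knockout and Npm1 (nucleophosmin) from 4612 to 9874 in wild type and 5102 to 14266 in the knockout, changes of 1.28 ± 0.26 and 1.29 ± 0.28. In none of these genes did the control and 8-hour arrays overlap, which held for all 396 genes that rose. The transcription factor Myc, which drives genes of ribosome production, was near the floor in the controls and rose from 209 to 518 in wild type and 171 to 685 in the knockout, by at least 1.66 ± 0.33. The limma adjusted p of the genes named here as changed ran from 0.00433 to 0.0329. Without 1 array at a time the number of members that rose ran from 0 to 20.

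Among subunits of RNA polymerase I, which transcribes ribosomal RNA, those named here did not pass. Polr1a (0.33 ± 0.20), Polr1b (0.04 ± 0.28), Polr1c (0.53 ± 0.18), Polr1d (0.13 ± 0.25) and Polr1e (0.78 ± 0.31) all had positive values, with limma adjusted p from 0.11 to 0.95. Ubtf, which encodes the activator of that polymerase, was lower on both 8-hour arrays than on either control (-0.37 ± 0.18, limma adjusted p 0.222). The genes of the ribosome's own proteins had 1 rise and 1 fall among 24 measured. Of these 17 were higher and 4 lower in both genotypes, with a median of 0.32. The rise was in Rpl13a, from 852 to 3761 in wild type and 1077 to 4082 in the knockout (2.03 ± 0.20), and the fall in Rpl22 (-1.12 ± 0.22). Many ribosomal protein genes have processed pseudogenes, whose transcripts the probes may share. Their limma adjusted p values lay between 0.00486 and 0.0266.

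Aminoacyl-tRNA synthetases load transfer RNAs with amino acids. Of 20 measured members 7 rose, and 17 were higher and 1 lower in both genotypes, with a median of 0.68. Both subunits of the phenylalanine enzyme rose: Farsa from 387 to 909 in wild type and 226 to 1283 in the knockout (1.87 ± 0.38), and Farsb from 1192 to 2438 in wild type and 1100 to 3031 in the knockout (1.25 ± 0.22). Cars, the cysteine enzyme, rose by at least 1.64 ± 0.30 and Hars, the histidine enzyme, by 1.09 ± 0.24. Iars, for isoleucine, went from 1221 to 2364 in wild type and 1148 to 2620 in the knockout (1.07 ± 0.18). The tryptophan enzyme Wars was higher at 8 hours in wild type and lower in knockout, from 1884 to 3354 in wild type and 5798 to 2568 in the knockout, and did not pass (limma adjusted p 0.864). Among 36 translation factors 6 rose and 1 fell, with a median of 0.41. Those that rose included the initiation factors Eif1a (1.24 ± 0.29) and Eif4a1 (1.16 ± 0.19), the ribosome anti-association factor Eif6 (1.06 ± 0.17) and the release factor gene Gspt1 (0.97 ± 0.18). The one that fell, Eif4ebp1, encodes a repressor of cap-dependent initiation, and went from 5664 to 1581 in wild type and 4317 to 2143 in the knockout (-1.43 ± 0.32). Each of the genes that rose lay higher on both 8-hour arrays than on either control. Adjusted p values from limma were 0.0156 to 0.0397 for these changes.

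Of 68 splicing and processing genes 7 rose and 2 fell, and 45 were higher and 8 lower in both genotypes, with a median of 0.38. The spliceosome genes Snrpa1, from 494 to 1508 in wild type and 432 to 2366 in the knockout, and Snrpd3, from 653 to 1565 in wild type and 171 to 892 in the knockout, rose by 2.03 ± 0.30 and at least 1.82 ± 0.35. Sf3a1 rose by 1.22 ± 0.22 and Hnrnpd by 1.07 ± 0.23, while the cold-inducible RNA-binding protein Cirbp fell, from 2246 to 1431 in wild type and 3444 to 874 in the knockout (-1.31 ± 0.32). Among 35 genes of nucleotide synthesis and salvage 4 rose and 5 fell, and 17 were higher and 10 lower in both genotypes. Paralogous enzymes of one step moved apart here. Uck2, a uridine-cytidine kinase, rose from 716 to 2648 in wild type and 638 to 3538 in the knockout (2.18 ± 0.27), while Uck1 fell from 7937 to 4464 in wild type and 6475 to 1905 in the knockout (-1.30 ± 0.30). Ctps, a CTP synthase, rose from 1137 to 3517 in wild type and 1708 to 3734 in the knockout (1.38 ± 0.23), while Ctps2 fell from 2240 to 814 in wild type and 1993 to 780 in the knockout (-1.41 ± 0.20). Within each of these 4 genes the 8-hour arrays lay on one side of both controls. Nme1, a nucleoside diphosphate kinase, rose by 1.55 ± 0.28, and the mitochondrial adenylate kinase Ak3 changed at -1.51 ± 0.22. Odc1 and Srm, which make the polyamines putrescine and spermidine, rose from 678 to 2662 in wild type and 598 to 4849 in the knockout and from 703 to 2418 in wild type and 988 to 3231 in the knockout, by 2.50 ± 0.30 and 1.75 ± 0.23. For the called genes named, limma gave adjusted p from 0.00904 to 0.0462.

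Several genes of nuclear transport were in no list and were picked out after their values were seen. The importin gene Kpna2 rose from 349 to 876 in wild type and 326 to 1227 in the knockout (1.62 ± 0.25), and Ran, the GTPase that gives transport its direction, rose from 11876 to 27440 in wild type and 13333 to 28822 in the knockout (1.16 ± 0.19). Its binding protein Ranbp1 rose by 1.33 ± 0.23, its exchange factor Rcc1 by 0.99 ± 0.22, and the transport receptors Ipo7 and Cse1l by 1.14 ± 0.24 and 1.02 ± 0.25. Their 8-hour arrays were above both controls. These changes had limma adjusted p from 0.015 to 0.044.

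**Figure D2:**
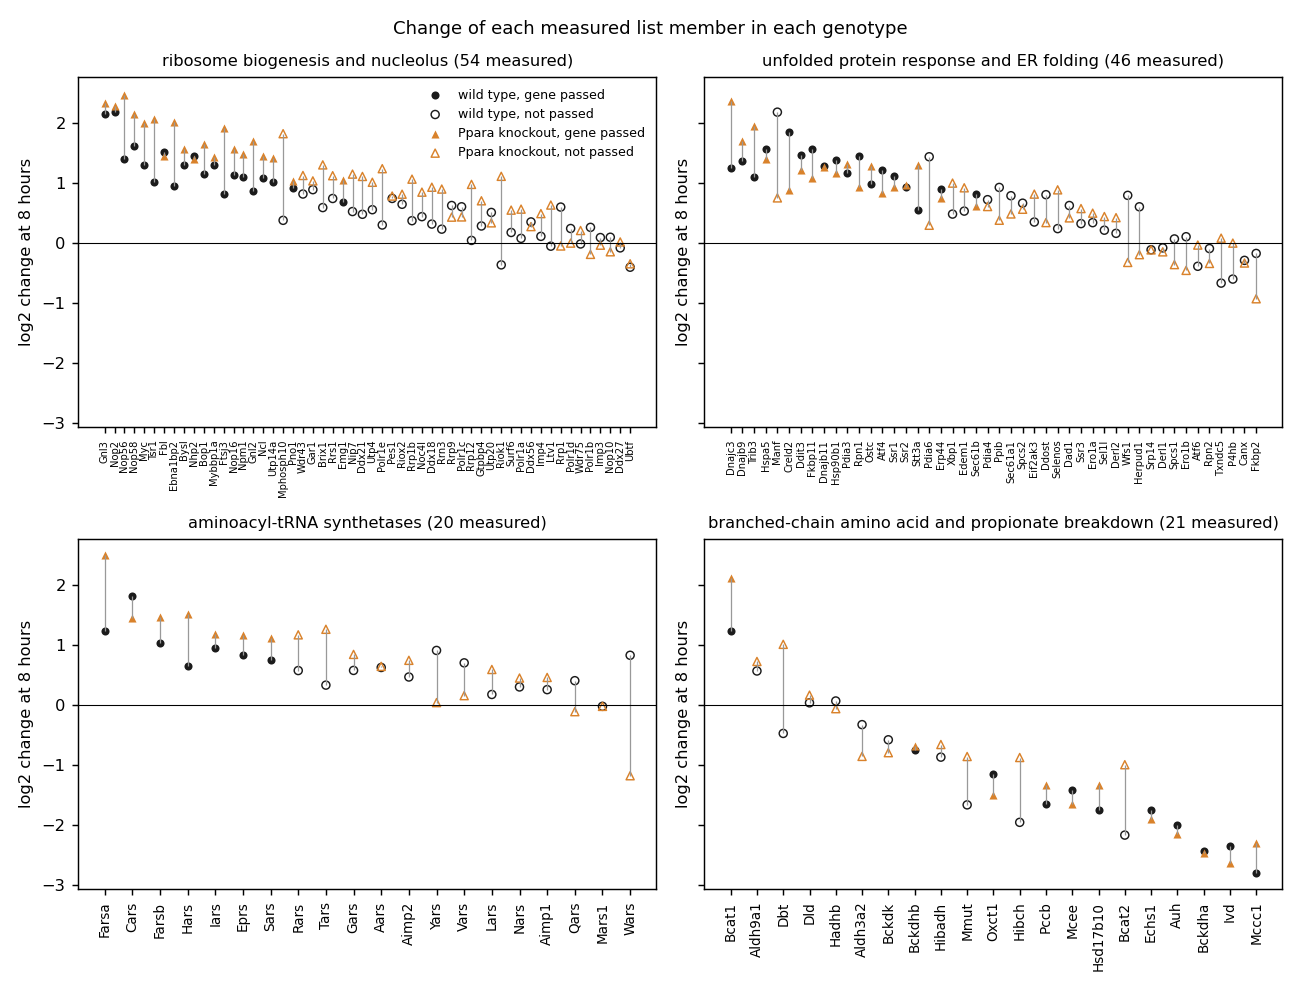
Log2 change at 8 hours of every measured member of 4 gene lists, with wild type as black circles and Ppara knockout as orange triangles, each 1 array minus 1 control array; filled symbols are called genes, open ones did not pass. Most members of the 3 rising lists lie above 0 in both genotypes, and most genes of branched-chain amino acid and propionate breakdown lie below it.

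Secreted and membrane proteins fold in the endoplasmic reticulum, and when folding falls behind, the unfolded protein response raises its chaperones through the transcription factors ATF6, XBP1 and ATF4. Of 46 measured genes of this response and of folding 18 rose, and 34 were higher and 6 lower in both genotypes, with a median of 0.67. Hspa5, which encodes BiP, the main chaperone of the compartment, went from 7262 to 21675 in wild type and 11104 to 29276 in the knockout (1.49 ± 0.20). Its HSP90-type partner Hsp90b1 went from 6855 to 17918 in wild type and 10619 to 23955 in the knockout (1.28 ± 0.19). Knockout controls were brighter than wild type controls for both, and both 8-hour arrays were brighter still. The co-chaperone Dnajc3 rose from 1283 to 3058 in wild type and 1121 to 5806 in the knockout (1.81 ± 0.30), and the related Dnajb9 from 2019 to 5237 in wild type and 1878 to 6154 in the knockout (1.54 ± 0.19). Creld2, a stress-induced ER protein, rose from 622 to 2258 in wild type and 1941 to 3603 in the knockout (1.38 ± 0.33). Of the regulators, Atf4 rose by 1.03 ± 0.19, Ddit3, which encodes CHOP, by 1.35 ± 0.28, and the pseudokinase gene Trib3 by 1.53 ± 0.24. Xbp1 was higher on both 8-hour arrays without passing, from 6519 to 9146 in wild type and 5744 to 11523 in the knockout (0.75 ± 0.20, limma adjusted p 0.0571), and Atf6 was not higher (-0.20 ± 0.20, limma adjusted p 0.533). Members of the translocation and glycosylation machinery rose too, among them Rpn1 (1.20 ± 0.23), Ostc (1.14 ± 0.21), Ssr1 (1.03 ± 0.18) and Sec61b (0.72 ± 0.17). The limma adjusted p of the genes named here as changed ran from 0.00983 to 0.0442. Without 1 array at a time the number of members that rose ran from 0 to 15.

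The ER stress element, CCAAT and CCACG with 9 bases of any kind between them, is the site through which ATF6 acts at chaperone genes. It was searched on both strands of the 250 bases before the RefSeq start of genes with 1 start window (GRCm38.p6), after the rise of this list had been seen. It was found in 9 of 3910 tested genes, 0.23%, and in 4 of the 277 genes that rose, Hspa5, Hsp90b1, Dnajc3 and Creld2, and in no window of the 304 that fell. Of the 34 windows of this list 7 held it, and of the 14 windows of its called members 4. Of all 22862 windows, 0.122% held it. A match is a description of these letters and does not show that the site is used. The windows of Hspa5, Hsp90b1, Dnajc3 and Creld2 are printed in part, because these 4 genes rose and carried the element. The stretches reach up to 45 bases beyond the matches, which are in capitals, and are on the gene's strand.
Hspa5 (chr2:34771980-34772088, plus strand): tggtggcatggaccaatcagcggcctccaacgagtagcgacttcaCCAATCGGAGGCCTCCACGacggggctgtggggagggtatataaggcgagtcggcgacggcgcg
Hsp90b1 (chr10:86705488-86705694, minus strand): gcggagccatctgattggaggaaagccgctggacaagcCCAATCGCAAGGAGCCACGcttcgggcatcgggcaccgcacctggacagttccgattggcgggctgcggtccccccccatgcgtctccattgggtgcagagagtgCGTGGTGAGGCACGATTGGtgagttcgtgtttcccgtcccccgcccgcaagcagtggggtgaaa
Dnajc3 (chr14:118937782-118937890, plus strand): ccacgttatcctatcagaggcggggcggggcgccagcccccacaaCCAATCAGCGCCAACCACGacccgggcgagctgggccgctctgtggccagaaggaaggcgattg
Creld2 (chr15:88819475-88819583, plus strand): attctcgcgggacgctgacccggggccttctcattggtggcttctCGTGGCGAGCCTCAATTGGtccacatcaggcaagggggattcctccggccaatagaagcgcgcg
Hsp90b1 held 2 matches, one on each strand, and the match of Creld2 lay on the opposite strand.

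Of 41 heat shock proteins and co-chaperones, some of them shared with the previous list, 15 rose and 1 fell, with a median of 0.64. Hsph1, an HSP110 that recharges HSP70, rose from 1168 to 4965 in wild type and 1079 to 9659 in the knockout (2.62 ± 0.34). Bag3, an HSP70 co-chaperone, rose from 1637 to 3490 in wild type and 1386 to 5241 in the knockout (1.51 ± 0.25). The TRiC ring, which folds actin and tubulin, had 1.37 ± 0.22 for Cct3, 1.20 ± 0.21 for Cct6a, 0.98 ± 0.18 for Cct7, 0.91 ± 0.19 for Cct4, 0.84 ± 0.19 for Cct5 and 0.82 ± 0.18 for Tcp1. Cryab, a small heat shock protein, fell from 802 to 214 in wild type and 731 to 215 in the knockout (-1.84 ± 0.23). In these genes no 8-hour array lay within the range of the controls. Mitochondrial chaperones took part, with Hspe1 at 1.05 ± 0.20 and Hspa9 at 0.96 ± 0.19. So did import genes, of which Timm8a1 rose from 542 to 1806 in wild type and 455 to 2145 in the knockout (1.99 ± 0.23), the outer membrane channel gene Tomm40 from 458 to 1590 in wild type and 281 to 1226 in the knockout (1.96 ± 0.18) and Timm9 by 1.60 ± 0.30. In that list of 54 genes 5 rose and 2 fell, the dicarboxylate carrier Slc25a10 (-1.98 ± 0.26) and Mrps15 (-0.79 ± 0.19). Proteasome and ubiquitin genes had 4 rises and 2 falls among 66, near the share of all genes, though 38 were higher and 11 lower in both genotypes. Their limma adjusted p values lay between 0.00456 and 0.043.

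Of 37 genes of microtubules and motors 4 rose and 2 fell, and the median was -0.11. The 4 were β-tubulins, whose near-identical coding sequences may let probe sets share signal. Tubb2a went from 3021 to 15591 in wild type and 2873 to 28474 in the knockout (2.84 ± 0.42), Tubb3 from 2290 to 9560 in wild type and 2210 to 13094 in the knockout (2.31 ± 0.29), Tubb6 from 3184 to 9305 in wild type and 3071 to 11851 in the knockout (1.75 ± 0.29) and Tubb5 from 6315 to 19776 in wild type and 7905 to 24279 in the knockout (1.63 ± 0.23). In each, the control values of the genotypes were alike and both 8-hour arrays were well above them. The motor-associated genes Kifap3 (-0.96 ± 0.22) and Pafah1b1 (-0.83 ± 0.19) fell. Adjusted p values from limma were 0.00983 to 0.0409 for these changes.

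Genes of sterol synthesis had rises and those of fatty acid synthesis falls. Both programmes are known targets of SREBP factors, with cholesterol genes answering mainly to one form and lipogenic genes to another. Of 20 measured cholesterol genes 9 rose, and 14 were higher and 4 lower in both genotypes, with a median of 0.71. Cyp51, lanosterol demethylase, rose from 344 to 1497 in wild type and 305 to 2146 in the knockout (2.47 ± 0.27). Lss, lanosterol synthase, rose from 314 to 1271 in wild type and 241 to 1414 in the knockout (2.28 ± 0.21). Idi1, which isomerises the isoprene unit, rose from 2035 to 6244 in wild type and 1405 to 8996 in the knockout (2.15 ± 0.27), and Msmo1, a sterol oxidase, from 568 to 1949 in wild type and 796 to 3436 in the knockout (1.94 ± 0.29). For each of these enzymes both 8-hour arrays lay above both controls. Sqle, Mvd, Dhcr7 and Hsd17b7, later or earlier steps of the pathway, rose by 1.61 ± 0.26, at least 1.31 ± 0.21, 1.29 ± 0.30 and at least 1.10 ± 0.17. The ninth, Abcg1, exports cholesterol and is not an enzyme of synthesis (1.04 ± 0.24). CCAAT, the box bound by NF-Y, lay in all 6 windows of called genes of this list. It also lay in 13 of the 14 windows of all its members, called or not, so it does not set the called members apart. The box lay in 37.1% of tested windows, 41.2% of those of risers and 34.7% of all windows. The sterol element TCACNCCAC lay in none of the 6, in 1 of the 14, in 1.02% of tested windows and in 0.993% of all. Star, which carries cholesterol into mitochondria for steroid synthesis, went from 171 to 3873 in wild type and 171 to 8584 in the knockout, a rise of at least 5.08 ± 0.32. For the called genes named, limma gave adjusted p from 0.00193 to 0.0415.

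Of 21 genes of fatty acid and triglyceride synthesis 1 rose and 8 fell, with a median of -0.46. Thrsp, a lipogenic nuclear protein, went from 23376 to 3080 in wild type and 18813 to 1079 in the knockout (-3.52 ± 0.30). Fasn, fatty acid synthase, went from 37828 to 8732 in wild type and 28145 to 5967 in the knockout (-2.18 ± 0.27). Gpd1, which makes glycerol 3-phosphate, went from 19641 to 8610 in wild type and 14608 to 6082 in the knockout (-1.23 ± 0.26). The exception was Dgat1, the last enzyme of triglyceride synthesis, from 10543 to 28463 in wild type and 8296 to 19732 in the knockout (1.34 ± 0.17). Each of these had both 8-hour arrays clear of both controls. In the list of lipolysis and the lipid droplet 4 of 23 rose and 6 fell. Acsl4, an acyl-CoA synthetase for arachidonic acid, rose from 710 to 9472 in wild type and 979 to 11523 in the knockout (3.65 ± 0.24). Lipa, the acid lipase of lysosomes, rose by 1.88 ± 0.46, and Plin2, a coat protein of small droplets, from 13604 to 38565 in wild type and 13409 to 38301 in the knockout (1.51 ± 0.35). Other lipases fell, with Ces1d from 26121 to 6234 in wild type and 19240 to 3024 in the knockout (-2.37 ± 0.21), and Lipe, hormone-sensitive lipase, from 17845 to 5960 in wild type and 12465 to 1715 in the knockout (-2.22 ± 0.35). G0s2, whose product inhibits adipose triglyceride lipase, fell by 2.03 ± 0.34. These changes had limma adjusted p from 0.00193 to 0.0453.

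Among the metabolic lists the lowest median was that of the breakdown of branched-chain amino acids and of propionate. Fat is a known site of this pathway, in which leucine, isoleucine and valine are transaminated, decarboxylated by a dehydrogenase complex and oxidised to units that feed the TCA cycle. Of 21 measured genes 10 fell and 1 rose, and 16 were lower and 3 higher in both genotypes. The median was -1.32 (-1.41 in wild type, -0.87 in knockout). Bckdha, the first subunit of the dehydrogenase, went from 4089 to 763 in wild type and 3046 to 554 in the knockout (-2.44 ± 0.30). Ivd, isovaleryl-CoA dehydrogenase, went from 3576 to 701 in wild type and 3448 to 556 in the knockout (-2.49 ± 0.36), and Mccc1, a carboxylase subunit of the same leucine branch, from 5734 to 826 in wild type and 3314 to 675 in the knockout (-2.55 ± 0.30). Auh, the next leucine enzyme, fell from 2011 to 502 in wild type and 1960 to 445 in the knockout (-2.07 ± 0.28). In these 4 genes both 8-hour arrays lay far below both controls. The valine and isoleucine branches followed with Echs1 (-1.82 ± 0.23) and Hsd17b10 (-1.54 ± 0.23), and the propionate steps with Pccb (-1.48 ± 0.30) and Mcee (-1.53 ± 0.28). Bckdk, the kinase that inhibits the complex, was also lower without passing (-0.68 ± 0.19, limma adjusted p 0.0668). The transaminases diverged. Cytosolic Bcat1 rose, from 226 to 535 in wild type and 171 to 744 in the knockout (at least 1.68 ± 0.30), while mitochondrial Bcat2 was lower at 8 hours, from 9683 to 2161 in wild type and 6720 to 3381 in the knockout (-1.58 ± 0.42), without passing (limma adjusted p 0.0575). The limma adjusted p of the genes named here as changed ran from 0.00889 to 0.0298. Without 1 array at a time the number that fell ran from 0 to 10.

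Other oxidative lists had medians nearer 0. Of 29 genes of the TCA cycle and its entry 7 fell and 1 rose, and 22 were lower and 4 higher in both genotypes, with a median of -0.54. Idh2, the mitochondrial NADP-linked isocitrate dehydrogenase, went from 4031 to 1526 in wild type and 4317 to 1219 in the knockout (-1.61 ± 0.22), and the mitochondrial PEP carboxykinase gene Pck2 from 600 to 215 in wild type and 822 to 326 in the knockout (-1.41 ± 0.18). Pdk4, a kinase that shuts pyruvate dehydrogenase, was the riser, from 2316 to 16701 in wild type and 815 to 5340 in the knockout (2.78 ± 0.40). Of 21 genes of mitochondrial fatty acid oxidation and ketone use 5 fell, and 4 were higher and 10 lower in both genotypes. The fallers included Hadh at -1.30 ± 0.26, Acads at -1.09 ± 0.27 and the ketone enzyme Oxct1 at -1.32 ± 0.25. Oxidative phosphorylation had 1 rise, Cycs, cytochrome c (1.14 ± 0.22), and 2 falls, Ndufv3 (-1.20 ± 0.25) and Sdha (-1.02 ± 0.22), among 64 genes. That is under the share of all genes in both directions. In both genotypes 31 were lower and 9 higher, with a median of -0.175 (-0.0107 in wild type, -0.361 in knockout). Peroxisomal genes had 2 rises and 4 falls among 25. Acaa1b, a peroxisomal thiolase, rose from 6809 to 35080 in wild type and 5092 to 18292 in the knockout (2.10 ± 0.26), and Abcd2, a transporter of very long chain acyl-CoA, fell from 7010 to 651 in wild type and 5788 to 643 in the knockout (-3.30 ± 0.26). Their limma adjusted p values lay between 0.00315 and 0.0489.

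Thermogenic genes did not move as one. Of 9 measured members 4 rose, and 5 were higher and 3 lower in both genotypes. The list median was 2.25 in wild type and 0.01 in knockout. Ucp1, the uncoupling protein that makes brown fat mitochondria give off heat, had the largest change of the list, from 381 to 23779 in wild type and 300 to 9616 in the knockout (5.48 ± 0.32). Pdk4, described above, is also in this list. Dio2, the deiodinase that makes active thyroid hormone, went from 176 to 1012 in wild type and 171 to 547 in the knockout (at least 2.10 ± 0.36). Elovl3, a fatty acid elongase, went from 171 to 973 in wild type and 171 to 378 in the knockout (at least 1.83 ± 0.36). Dio2 and Elovl3 were at or next to the floor in the controls and, like Ucp1, brighter in wild type than in knockout at 8 hours, a difference that 1 array per group does not test. Cox7a1, a respiratory subunit of muscle and brown fat, read from 171 to 812 in wild type and 194 to 196 in the knockout and did not pass (limma adjusted p 0.213). Cidea, Cox8b and Ebf2 were lower at 8 hours than in the control of each genotype, with -0.81 ± 0.27, -1.26 ± 0.36 and -0.79 ± 0.29, and did not pass (limma adjusted p from 0.071 to 0.13). Adjusted p values from limma were 0.00186 to 0.0282 for these changes.

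Of 34 genes of glucose use and glycogen 5 rose and 8 fell, and 13 were higher and 18 lower in both genotypes. The insulin-dependent glucose transporter gene Slc2a4 went from 5187 to 851 in wild type and 3588 to 277 in the knockout (-3.15 ± 0.29). Pygb, a glycogen phosphorylase, went from 3776 to 706 in wild type and 3367 to 378 in the knockout (-2.79 ± 0.27), Pfkfb3, which makes the activator of phosphofructokinase, from 1589 to 851 in wild type and 1648 to 300 in the knockout (-1.68 ± 0.36), and Tkt, transketolase, fell by 1.41 ± 0.29. The glycolytic enzymes Pgk1 and Pgam1 rose, Pgk1 from 4269 to 12508 in wild type and 3861 to 11021 in the knockout (1.53 ± 0.17) and Pgam1 by 0.92 ± 0.17. Slc16a1, a transporter of lactate, rose from 370 to 1518 in wild type and 253 to 1647 in the knockout (2.37 ± 0.23), while its relative Slc16a7 fell from 1040 to 171 in wild type and 932 to 171 in the knockout (-2.53 ± 0.17 or lower). As in nearly all called genes, both 8-hour arrays of each lay on one side of both controls. Insulin signalling genes as a list had 2 rises and 3 falls among 24 (8.33% and 12.5%), where 6.46% and 8.29% of all genes rose and fell. Among the fallers were Irs3, an adaptor of the insulin receptor in rodent fat, at -2.17 ± 0.31 or lower and Akt2 at -0.87 ± 0.17. For the called genes named, limma gave adjusted p from 0.00201 to 0.0329.

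Of 29 enzymes that handle retinoids, steroids and foreign compounds 12 fell and 4 rose, and 17 were lower and 9 higher in both genotypes, with a median of -0.61. Inmt, a methyltransferase of small amines, went from 1450 to 188 in wild type and 2340 to 171 in the knockout (-3.36 ± 0.24 or lower). Aldh1a7, an aldehyde dehydrogenase, went from 4754 to 1151 in wild type and 4683 to 603 in the knockout (-2.50 ± 0.26), and Sult1a1, a sulfotransferase, from 2497 to 299 in wild type and 1365 to 481 in the knockout (-2.28 ± 0.37). The flavin monooxygenase Fmo1 fell by 2.28 ± 0.21. Cbr3, a carbonyl reductase, was among the risers, from 649 to 4357 in wild type and 1013 to 3433 in the knockout (2.25 ± 0.30). Of 46 antioxidant genes 7 rose and 12 fell, and 16 were higher and 21 lower in both genotypes. Those that rose included Srxn1, sulfiredoxin, from 291 to 1727 in wild type and 487 to 3766 in the knockout (2.76 ± 0.24), Sod2, the manganese superoxide dismutase, by 1.76 ± 0.24 and Txnrd1, thioredoxin reductase, by 1.26 ± 0.18. Metallothioneins, which bind zinc and whose probe sets may share signal, rose too, with Mt1 from 11076 to 43411 in wild type and 13559 to 51258 in the knockout (1.94 ± 0.30) and Mt2 at 1.91 ± 0.42. Those that fell included the glutathione transferases Gstt1 from 5968 to 1447 in wild type and 5132 to 863 in the knockout (-2.31 ± 0.27), Gstz1 from 27960 to 7220 in wild type and 23925 to 6069 in the knockout (-1.97 ± 0.22), Gstk1 at -1.73 ± 0.34 and Mgst2 at -2.03 ± 0.24 or lower. These changes had limma adjusted p from 0.00203 to 0.0352.

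**Figure D3:**
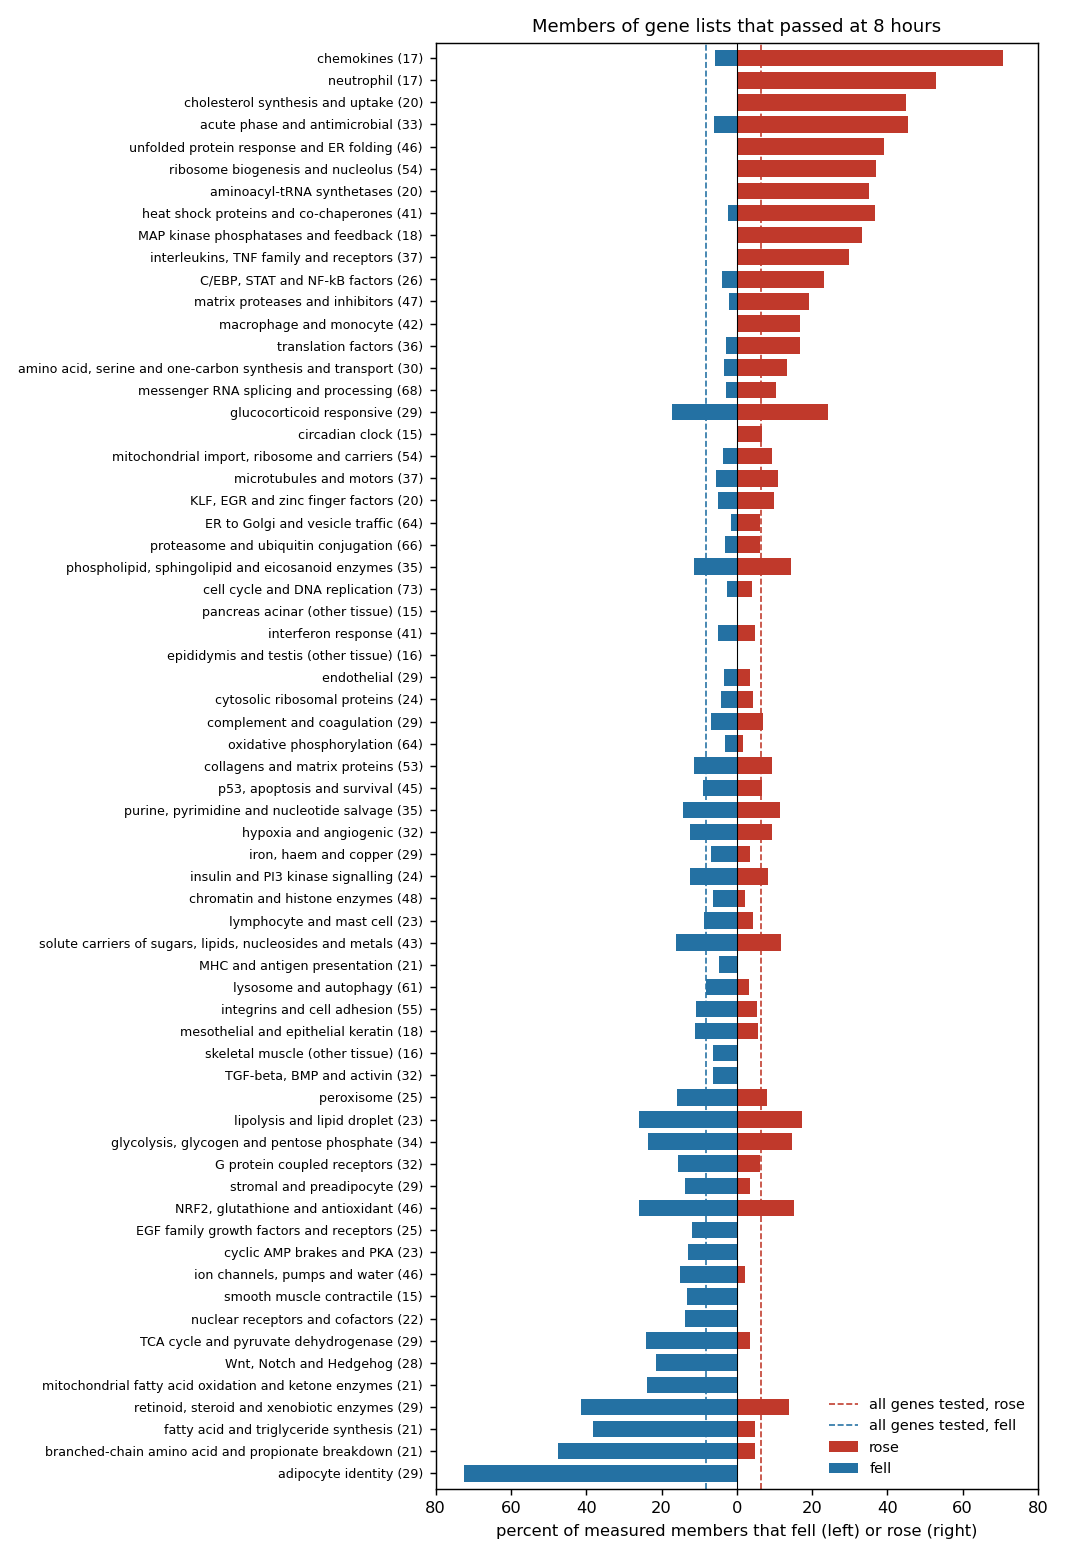
Percent of measured members that rose (red, right) or fell (blue, left) at 8 hours, for lists with at least 15 measured members (number in brackets; 1 list is not shown), ordered by the difference; dashed lines mark 6.46% and 8.29%, the shares of all genes tested. Chemokines lead the risers and adipocyte genes the fallers, with translation, folding and sterol lists above the line on the right.

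Of 23 genes of cyclic AMP breakdown, protein kinase A and their brakes 3 fell, 13%, where 8.29% of all genes tested did. In both genotypes 8 were higher and 11 lower. Adcy6, an adenylyl cyclase, went from 3649 to 1747 in wild type and 3120 to 1286 in the knockout (-1.17 ± 0.24). Gnai1, an inhibitory G protein subunit, went from 9352 to 4329 in wild type and 7453 to 3439 in the knockout (-1.11 ± 0.18), and Prkaca, the catalytic subunit of protein kinase A, from 4121 to 2098 in wild type and 3013 to 1487 in the knockout (-1.0 ± 0.19). In all 3 the 8-hour arrays lay below both controls. The falls thus held both a cyclase and an inhibitor of cyclases. Among CREB family and cyclic AMP responsive factors 3 of 11 rose, Cebpb (1.91 ± 0.20), Cebpd (1.29 ± 0.26) and Atf4 (1.03 ± 0.19). Crem, from 286 to 343 in wild type and 190 to 788 in the knockout, and the orphan receptor gene Nr4a1, from 211 to 461 in wild type and 427 to 1034 in the knockout, were higher on the 8-hour array of each genotype without passing (limma adjusted p 0.142 and 0.0838). The limma adjusted p of the genes named here as changed ran from 0.00635 to 0.031.

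The cyclic AMP response element TGACGTCA, the palindrome bound by CREB, lay in 2.53% of the 277 windows of genes that rose, in 1.32% of the 304 that fell and in 2.63% of tested windows. The shorter element TGACG, which the palindrome contains, on either strand, lay in 30.3%, 16.8% and 28.0%, and the AP-1 element TGANTCA in 6.50%, 3.62% and 4.50%. Of all 22862 windows 1.61%, 17.5% and 6.96% held them. Among the risers with the full palindrome were Dio2, the β-tubulin Tubb2a, the hyaluronan synthase Has1 and Cycs. Their windows are shown in part, with 45 bases on each side of the element in capitals, on the gene's strand in GRCm38.p6.
Dio2 (chr12:90739081-90739178, minus strand): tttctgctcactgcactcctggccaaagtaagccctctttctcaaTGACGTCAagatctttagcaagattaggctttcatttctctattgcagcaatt
Tubb2a (chr13:34078015-34078112, minus strand): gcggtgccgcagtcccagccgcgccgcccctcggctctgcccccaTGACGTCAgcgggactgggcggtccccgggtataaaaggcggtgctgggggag
Has1 (chr17:17855219-17855316, minus strand): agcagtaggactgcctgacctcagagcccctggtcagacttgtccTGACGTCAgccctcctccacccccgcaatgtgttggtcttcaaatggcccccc
Cycs (chr6:50566686-50566783, minus strand): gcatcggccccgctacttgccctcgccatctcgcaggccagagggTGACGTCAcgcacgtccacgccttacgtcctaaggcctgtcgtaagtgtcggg

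Of 18 measured phosphatases and feedback inhibitors of kinase signalling 6 rose, and 11 were higher and 2 lower in both genotypes, with a median of 0.80. Socs3, which blocks cytokine receptors that signal through STAT3, went from 280 to 2501 in wild type and 256 to 3328 in the knockout (3.43 ± 0.24). Dusp16, a phosphatase of stress-activated kinases, went from 532 to 3252 in wild type and 496 to 2953 in the knockout (2.59 ± 0.31). The tyrosine phosphatase genes Ptpn2 and Ptpn1 rose from 272 to 618 in wild type and 204 to 967 in the knockout and from 1315 to 3213 in wild type and 1399 to 3513 in the knockout, by 1.71 ± 0.28 and 1.31 ± 0.23. All 4 were clear of both controls. Dusp1, a phosphatase induced early after stimulation, read from 5089 to 5009 in wild type and 4459 to 4944 in the knockout and did not pass (0.06 ± 0.25, limma adjusted p 0.903). Among C/EBP, STAT and NF-κB factors 6 of 26 rose and 1 fell. Cebpb rose from 3997 to 13853 in wild type and 3500 to 14194 in the knockout and Bcl3, a nuclear partner of NF-κB, from 365 to 1223 in wild type and 378 to 1565 in the knockout (1.91 ± 0.20 and 1.90 ± 0.19). Cebpa, which maintains the adipocyte state, was the faller, from 41135 to 16940 in wild type and 40328 to 8294 in the knockout (-1.78 ± 0.27). Of AP-1 genes outside the lists, Fosl1 rose from 171 to 1615 in wild type and 171 to 3169 in the knockout (at least 3.73 ± 0.29) and Junb from 229 to 2610 in wild type and 326 to 2925 in the knockout (3.34 ± 0.50). Snai1 (at least 2.46 ± 0.28) and Egr1 (1.27 ± 0.24), zinc finger factors, also rose. The clock list had 1 rise among 15, Bhlhe40 (0.97 ± 0.22). Their limma adjusted p values lay between 0.00201 and 0.0368.

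Of 28 genes of Wnt, Notch and Hedgehog signalling 6 fell, with a median of -0.30, and 16 were lower and 2 higher in both genotypes. Fzd4, a Wnt receptor, went from 16961 to 3871 in wild type and 7416 to 2496 in the knockout (-1.85 ± 0.27). Smo, the signal transducer of Hedgehog, went from 605 to 223 in wild type and 557 to 227 in the knockout (-1.37 ± 0.20), and Ptch1, its inhibitory receptor, from 851 to 495 in wild type and 757 to 340 in the knockout (-0.97 ± 0.24). Notch1 fell from 723 to 229 in wild type and 849 to 420 in the knockout (-1.34 ± 0.26). The 8-hour values of these 4 were below both controls. Several hormone receptor genes fell. Mc2r, the ACTH receptor, went from 1698 to 171 in wild type and 1282 to 171 in the knockout (-3.11 ± 0.25 or lower), and Ptger3, a prostaglandin E2 receptor that lowers cyclic AMP, from 1369 to 171 in wild type and 772 to 171 in the knockout (-2.59 ± 0.29 or lower). Npr3, the clearance receptor of natriuretic peptides, went from 9122 to 756 in wild type and 10751 to 1235 in the knockout (-3.36 ± 0.24). These 3 belong to a list of 32 receptors in which 2 rose and 5 fell, and 11 were higher and 9 lower in both genotypes. The risers were the leukocyte receptors Ccr1 (3.65 ± 0.83) and Fpr2 (at least 2.32 ± 0.26). Growth factor genes had 3 falls among 25, namely Fgf1 (-1.77 ± 0.28), Igfbp4 (-1.58 ± 0.22) and Fgfr2 (-1.57 ± 0.22). Nuclear receptors had 3 falls among 22: Thra, a thyroid hormone receptor, from 4545 to 1218 in wild type and 3235 to 869 in the knockout (-1.90 ± 0.22), Pparg (-1.28 ± 0.19) and the glucocorticoid receptor gene Nr3c1 (-1.16 ± 0.21). Adjusted p values from limma were 0.00201 to 0.0489 for these changes.

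Ion channels and pumps had 7 falls and 1 rise among 46. Scn7a, a sodium channel, fell to the neighbourhood of the floor, from 2485 to 177 in wild type and 2041 to 172 in the knockout (-3.69 ± 0.34). Fxyd1, a regulator of the sodium pump, went from 8631 to 3132 in wild type and 6445 to 1941 in the knockout (-1.60 ± 0.22), and the potassium channel gene Kcnk2 from 635 to 261 in wild type and 536 to 171 in the knockout (-1.47 ± 0.23 or lower). Slc4a4, a bicarbonate cotransporter, rose by at least 1.77 ± 0.25. The sodium-coupled glutamine transporter Slc1a5 fell from 4876 to 826 in wild type and 4439 to 455 in the knockout (-2.92 ± 0.25), and the amino acid transporter Slc38a2 rose from 965 to 2158 in wild type and 646 to 3163 in the knockout (1.73 ± 0.29). Both 8-hour arrays of each gene were beyond both controls. Heph, a ferroxidase of iron export, fell from 2337 to 296 in wild type and 1409 to 174 in the knockout (-3.00 ± 0.17). For the called genes named, limma gave adjusted p from 0.00186 to 0.0182.

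**Figure D4:**
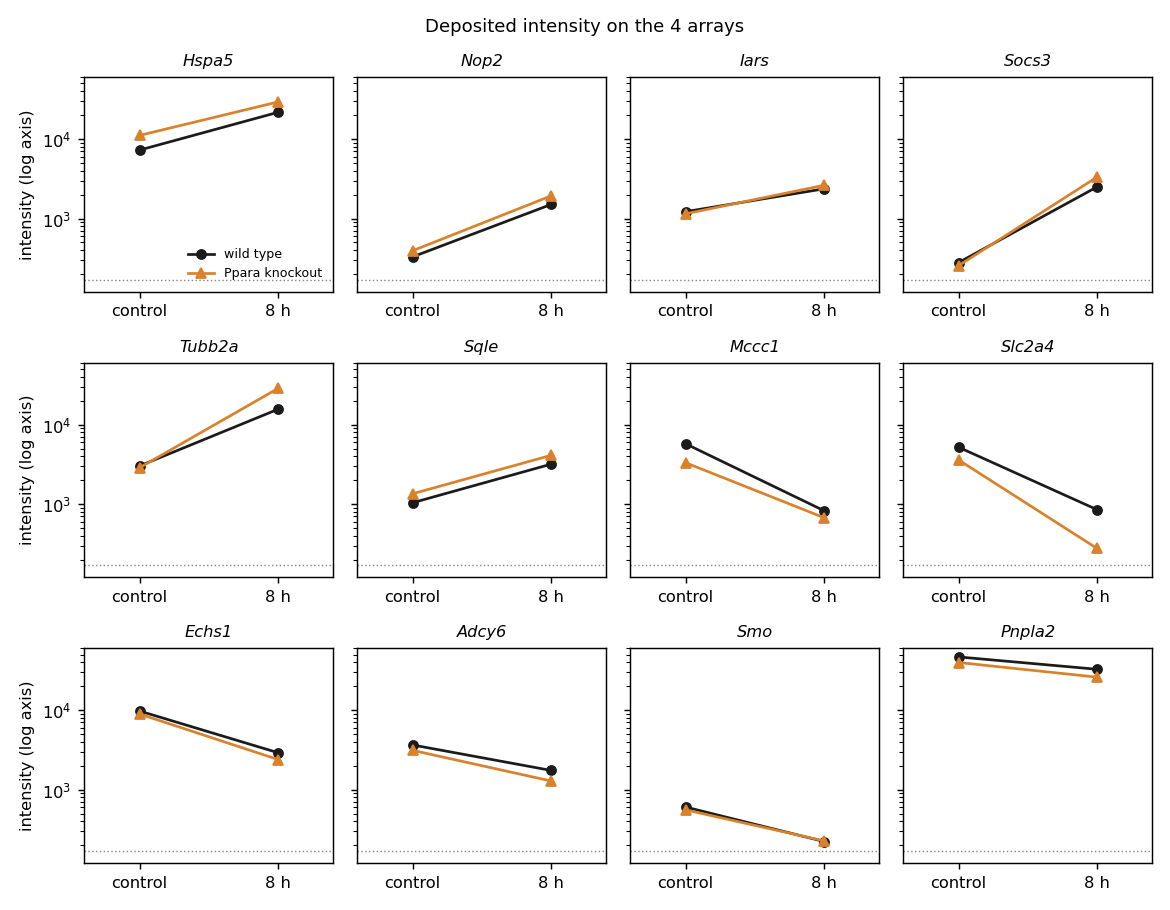
Deposited intensity, set to no less than 171 (dotted line), on a log axis for 12 genes on the control and 8-hour arrays of wild type (black circles) and Ppara knockout (orange triangles), 1 array per point. Lines of the genotypes run nearly parallel: up in Hspa5, Nop2, Iars, Socs3, Tubb2a and Sqle, and down in the others.

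Of 53 collagens and matrix proteins 5 rose and 6 fell, which is near the share of all genes. Vcan, a large hyaluronan-binding proteoglycan, went from 171 to 2645 in wild type and 196 to 4467 in the knockout (at least 4.23 ± 0.62). Cd44, a hyaluronan receptor, rose from 171 to 890 in wild type and 171 to 1078 in the knockout (at least 2.52 ± 0.62), and Has1, a hyaluronan synthase, from 171 to 444 in wild type and 171 to 2046 in the knockout (at least 2.48 ± 0.58). After these values were seen, other genes of hyaluronan were looked up outside the list. Ugdh, which makes the glucuronic acid precursor, rose from 4807 to 22224 in wild type and 4606 to 34026 in the knockout (2.55 ± 0.29), and Uap1, which makes the glucosamine precursor, from 245 to 1249 in wild type and 245 to 2207 in the knockout (2.76 ± 0.35). Gfpt2, at the entry to that precursor, rose from 1046 to 2573 in wild type and 1086 to 5314 in the knockout (1.79 ± 0.29), and Tnfaip6, which links proteins to hyaluronan, from 171 to 642 in wild type and 171 to 2000 in the knockout (at least 2.73 ± 0.44). Because they were picked by their values, the count of these genes carries no test. The fallers of the matrix list were small proteoglycans and others, with Ogn from 5034 to 1083 in wild type and 2852 to 407 in the knockout (-2.51 ± 0.44), Matn2 (-1.89 ± 0.18), Fmod (-1.63 ± 0.23) and Sparcl1 (-1.26 ± 0.21). Proteases and their inhibitors had 9 rises and 1 fall among 47. Timp1, an inhibitor of metalloproteinases, went from 1666 to 18624 in wild type and 1199 to 29589 in the knockout (4.05 ± 0.59), and Plaur, the urokinase receptor, from 196 to 734 in wild type and 213 to 1283 in the knockout (2.25 ± 0.32). The faller, Reck, is an inhibitor of the same proteases (-1.30 ± 0.26 or lower). Among 55 adhesion genes 3 rose (5.45%) and 6 fell (10.9%), near the shares of all genes. The syndecans parted, Sdc1 from 171 to 622 in wild type and 171 to 1404 in the knockout (at least 2.45 ± 0.33) and Sdc2 from 1866 to 262 in wild type and 1238 to 436 in the knockout (-2.17 ± 0.34), and the selectin of activated endothelium and platelets, Selp, rose from 171 to 1110 in wild type and 171 to 1243 in the knockout (at least 2.78 ± 0.17). These changes had limma adjusted p from 0.00186 to 0.0472.

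Chemokines, which draw leukocytes into tissue, had the highest share of members that rose among lists with at least 15 measured. Of 17 measured chemokines 12 rose and 1 fell, with a median of 2.36. Ccl7, a monocyte attractant, went from 171 to 3472 in wild type and 171 to 6197 in the knockout (at least 4.76 ± 0.91). The neutrophil attractants Cxcl1, from 171 to 3189 in wild type and 171 to 4877 in the knockout (at least 4.53 ± 0.27), Cxcl5, from 171 to 2463 in wild type and 171 to 2280 in the knockout (at least 3.79 ± 0.20), and Cxcl2, from 171 to 2541 in wild type and 171 to 1709 in the knockout (at least 3.61 ± 0.22), were all at the floor in both controls. From the floor a gene cannot fall. Cxcl9, a chemokine induced by interferon γ, was the faller and reached the floor at 8 hours, from 1045 to 171 in wild type and 487 to 171 in the knockout (-2.06 ± 0.38 or lower). Of 37 interleukins, TNF family members and receptors 11 rose, and 24 were higher and 7 lower in both genotypes. Il1b went from 171 to 2975 in wild type and 171 to 2463 in the knockout (at least 3.98 ± 0.18). Il4ra, the receptor chain of interleukins 4 and 13, was measurable in the controls and rose from 472 to 4363 in wild type and 763 to 6798 in the knockout (3.18 ± 0.51), and Osmr, the oncostatin M receptor, from 938 to 3540 in wild type and 582 to 4910 in the knockout (2.50 ± 0.47). Acute phase genes had 15 rises and 2 falls among 33, with the pentraxin Ptx3 from 171 to 3857 in wild type and 171 to 7462 in the knockout (at least 4.97 ± 0.29). Complement and coagulation genes stayed near the share of all genes (2 and 2 of 29), but Cd55, a membrane protein that protects cells from complement, rose from 449 to 5185 in wild type and 313 to 5428 in the knockout (3.82 ± 0.37). The interferon list had 2 rises and 2 falls among 41, under the share of all genes in both directions. In it Ifitm1 rose from 171 to 1445 in wild type and 174 to 1179 in the knockout (at least 2.92 ± 0.18). Ifit1, Ifit2 and Rsad2, induced by type I interferon, read at most 181 on the 4 arrays. Antigen presentation had 1 fall among 21, Mr1 (-0.79 ± 0.20 or lower). The limma adjusted p of the genes named here as changed ran from 0.00162 to 0.0493.

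The NF-κB element was searched as GGG, any 2 bases, then TTTCC or TTCCC, on both strands. It lay in 3 of 9 windows of called chemokines, Cxcl1, Cxcl2 and Cxcl9, and in 4 of 12 of all measured chemokines, called or not. In wider sets it lay in 3.25% of windows of all genes that rose, 4.93% of those that fell, 3.32% of tested windows and 2.69% of all windows. Il6, which rose from 171 to 1272 in wild type and 171 to 1958 in the knockout (at least 3.21 ± 0.23), held it as well. The windows of Cxcl1, Cxcl2 and Il6 are shown in part, up to 45 bases beyond the matches, with the element in capitals. All are printed as the plus strand of GRCm38.p6, and the first match of Cxcl1 lies on the opposite strand. The limma adjusted p of Il6 was 0.00201.
Cxcl1 (chr5:90891111-90891228): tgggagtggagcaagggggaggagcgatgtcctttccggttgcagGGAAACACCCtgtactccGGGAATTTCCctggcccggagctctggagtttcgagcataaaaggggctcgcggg
Cxcl2 (chr5:90903757-90903875): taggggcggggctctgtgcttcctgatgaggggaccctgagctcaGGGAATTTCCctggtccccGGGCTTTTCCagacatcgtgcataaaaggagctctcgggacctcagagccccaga
Il6 (chr5:30013025-30013113): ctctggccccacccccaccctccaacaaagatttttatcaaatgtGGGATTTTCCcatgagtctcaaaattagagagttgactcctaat

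Marker genes of cell types moved with these programmes. Summed intensities of 29 adipocyte genes went from 598481 to 273513 in wild type and 529847 to 229205 in the knockout, and 21 members fell. Those of 42 macrophage and monocyte genes went from 50458 to 156412 and from 57340 to 161608. Of these 7 rose by the test, but 28 were at least 2-fold higher in each genotype, and 36 were higher and 1 lower in both. At 6 days of infusion the macrophage sum was 69536 in wild type and 339589 in the knockout. Such differences between genotypes enter the spread of the fit. Without both 6-day arrays 535 genes rose and 562 fell, against 396 and 508 with them. How much of this comes from the macrophage difference was not tested. Neutrophil genes, 17 measured, went from 5625 to 47774 and from 21226 to 59994, with 9 rises. At the floor were 8 of the 17 in the wild type control and 9 in the knockout control, so the other members carry these control sums. In bulk tissue, fewer cells of a type and less RNA per cell cannot be told apart. The part of arriving leukocytes or of lost adipocyte signal in the ribosomal, folding, sterol and metabolic changes was not tested. Individual macrophage markers ranged widely. The myeloid factor gene Spi1 read from 320 to 1643 in wild type and 253 to 1483 in the knockout and Cd68 from 1167 to 5593 in wild type and 1737 to 5387 in the knockout, both without passing (limma adjusted p 0.0639 and 0.104). Folr2 and C1qc, 2 others of the list, went from 1299 to 1549 in wild type and 1110 to 1085 in the knockout and from 5852 to 6758 in wild type and 5197 to 6914 in the knockout and did not pass either (limma adjusted p 0.952 and 0.706). Marker lists of other fat pad cells had 1 rise and 1 fall of 29 endothelial genes and 1 rise and 4 falls (13.8%) of 29 stromal genes. Smooth muscle genes had 2 falls of 15 (13.3%) and mesothelial genes 1 rise and 2 falls of 18 (11.1%). Of all genes tested 8.29% fell. The stromal sum went from 135272 to 93189 in wild type and 111965 to 100667 in the knockout. The mesothelial sum went from 26414 to 24702 in wild type and 45751 to 24491 in the knockout. Limma called 0 of 15 pancreas and 0 of 16 epididymis and testis genes, with 0 and 2 at an unadjusted p under 0.05.

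**Figure D5:**
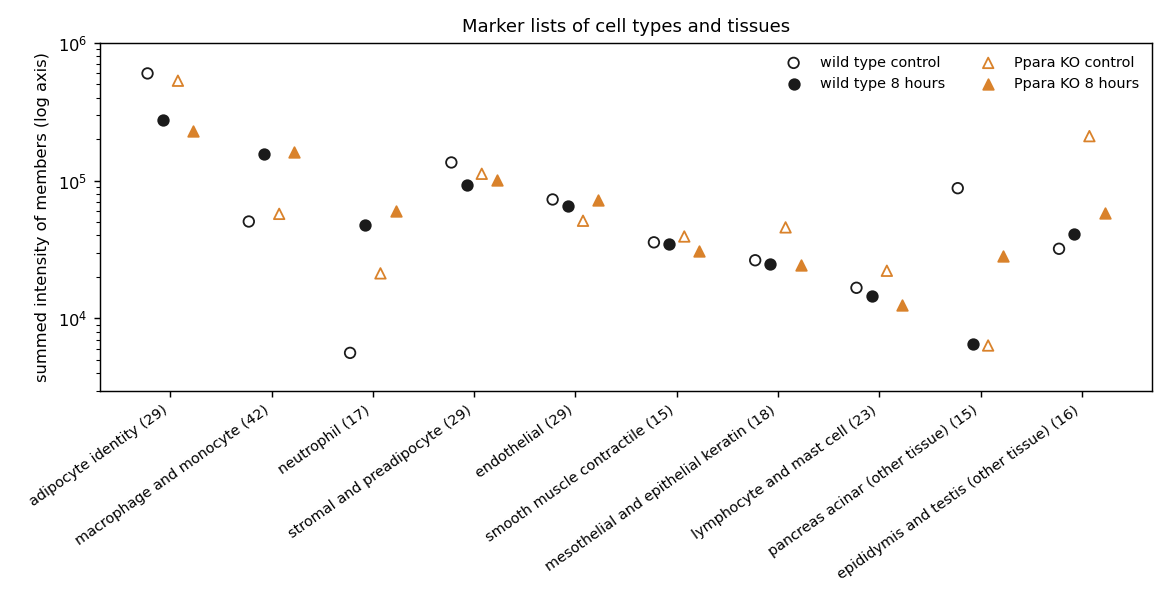
Summed intensity of the measured members of 10 marker lists (number in brackets) on the 4 arrays, on a log axis, with controls as open and 8-hour arrays as filled symbols, wild type as black circles and Ppara knockout as orange triangles. Adipocyte sums fall and macrophage and neutrophil sums rise in both genotypes, while pancreas and epididymis sums differ between the controls.

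Lists of growth and stress signals had mixed members. Of 32 hypoxia and angiogenic genes 3 rose (9.38%) and 4 fell (12.5%), where 6.46% and 8.29% of all genes tested did. In both genotypes 11 were higher and 12 lower. Hif1a, the oxygen-regulated transcription factor, rose from 9454 to 21658 in wild type and 8089 to 27668 in the knockout (1.49 ± 0.23). Its classical target Bnip3, a mitophagy receptor, fell from 5195 to 1182 in wild type and 3778 to 986 in the knockout (-2.04 ± 0.23), as did Egln1, which marks the factor for breakdown (-1.23 ± 0.26), and the growth factor Vegfb (-2.07 ± 0.21). Cell cycle genes had 3 rises and 2 falls among 73, under the share of all genes in both directions. The risers were Cks2, a subunit of cyclin-dependent kinases (at least 1.77 ± 0.26), and Myc and Tubb5, described above. The fallers were the kinase inhibitor gene Cdkn2c, from 9894 to 2067 in wild type and 7989 to 1421 in the knockout (-2.38 ± 0.20), and Rbl2, a relative of the retinoblastoma protein (-1.23 ± 0.19). In the list of p53, apoptosis and survival 3 of 45 rose and 4 fell, near the shares of all genes. Among them were the kinase inhibitor genes Cdkn1a and Cdkn1c. Cdkn1a rose from 1122 to 2618 in wild type and 893 to 5498 in the knockout (1.92 ± 0.36), and Cdkn1c fell by 1.76 ± 0.17. Ier3, a stress-induced survival gene, rose from 471 to 3676 in wild type and 766 to 11268 in the knockout (3.42 ± 0.32). Prostaglandin genes included a fall of Hpgd, the enzyme that inactivates prostaglandins, from 1520 to 182 in wild type and 1095 to 171 in the knockout (-2.87 ± 0.32 or lower), and a small rise of Ptgs2, cyclooxygenase 2, from 171 to 263 in wild type and 171 to 328 in the knockout (at least 0.78 ± 0.18). In these genes the control and 8-hour ranges did not overlap. Lysosome genes had 2 rises and 5 falls among 61 and chromatin genes 1 and 3 among 48, below or near the share of all genes. Of chromatin regulators, Ezh1, a histone methyltransferase, fell from 2394 to 930 in wild type and 2211 to 665 in the knockout (-1.55 ± 0.20) and Hdac5, a histone deacetylase, from 3581 to 1360 in wild type and 2878 to 1069 in the knockout (-1.41 ± 0.20). Their limma adjusted p values lay between 0.00385 and 0.0409.

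In no list were 165 of the genes that rose and 323 of those that fell. Among the largest, Tgm3, a transglutaminase, went from 171 to 3620 in wild type and 171 to 2977 in the knockout (at least 4.26 ± 0.18). Alpl, tissue-nonspecific alkaline phosphatase, went from 219 to 8175 in wild type and 1435 to 5360 in the knockout (3.56 ± 0.70). Ppif, cyclophilin D of the mitochondrial pore, rose from 342 to 2175 in wild type and 223 to 1518 in the knockout (2.72 ± 0.22). The myeloid genes Lilr4b (3.46 ± 0.71), Slfn4 (at least 2.78 ± 0.53) and Slfn1 (at least 2.52 ± 0.33) rose as well. Of the fallers, Aoc3, an amine oxidase abundant on fat cells, went from 20269 to 2545 in wild type and 14153 to 1079 in the knockout (-3.35 ± 0.23). Selenbp1, a methanethiol oxidase, went from 4051 to 345 in wild type and 3154 to 259 in the knockout (-3.58 ± 0.19). Plagl1, an imprinted zinc finger gene, went from 1724 to 171 in wild type and 1255 to 171 in the knockout (-3.10 ± 0.30 or lower), and the imprinted gene Mest from 2739 to 508 in wild type and 2113 to 446 in the knockout (-2.34 ± 0.56). Each had both 8-hour arrays on one side of both controls. Penk, proenkephalin, fell from 7490 to 2312 in wild type and 9232 to 1023 in the knockout (-2.43 ± 0.37), Phka2, a phosphorylase kinase subunit, at -2.60 ± 0.37 and Aox1, aldehyde oxidase, at -2.52 ± 0.31. Adjusted p values from limma were 0.00162 to 0.0437 for these changes.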

How the data were processed

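The deposited values were linear microarray intensities, all whole numbers, with 11.9% below 0. Between the 25th and 99th percentiles the arrays differed by at most 0.188% at equal rank, so the authors had normalised them to one distribution before deposit, by a method not given in the sources used here. They were kept as deposited, set to no less than 171 (the 40th percentile) and put on the log2 scale. Of 12488 probe sets 10855 had 1 gene symbol, 396 several, and 1237 were not listed in the platform annotation; 10839 symbols were updated to GRCm38.p6. Probe sets above the floor on at least 2 of 8 arrays (7366) entered, the brightest for each of 6129 genes. Of 1044 genes with several probe sets 0 had any that moved 2-fold in opposite directions; of 165 called genes with several, 149 had all in one direction. No column of values was unused (0 columns).

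Limma 3.58.1 in R 4.3.3 fitted genotype plus time to all 8 arrays, with 3 residual degrees of freedom and Benjamini-Hochberg adjustment over 6129 genes, threshold 0.05; genotype thus pairs the arrays. Each group had 1 array, so the spread is what genotype plus time left unfitted over all 8 arrays. It holds any difference between the genotypes at 3 or 6 days, and possibly technical variation. A gene whose genotypes part at those times is thus less easily called at 8 hours. The p-values reflect only this spread, and the number of arrays limits the precision. The fit was also run on simulated data with independent noise, no difference between genotypes and no floor. Such data cannot show how the fit behaves on these arrays.

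The members and the 70 gene lists (2041 tested genes, 7 symbols unmatched) were chosen with earlier results of these data known. Named were up to 4 called members per list and direction (up to 2 of one direction where none passed), called genes ranked 6 to 20 each way, called genes outside every list among the 60 largest each way, and the pancreas and epididymis genes of highest level; other genes in the text were chosen after their values were seen. Promoter windows are the 250 bases before the start in RefSeq GRCm38.p6. Figures used matplotlib 3.10.9. Alternatives covered the floor, filter, scaling, prior, probe set rule, other-tissue genes, direction rule and arrays left out. The result of 1 list is not reported here.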

Additional observations from a re-analysis of the deposited data

Results flagged for a closer look

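Several genes, most of them of the pancreas, moved in opposite directions in the genotypes at 8 hours, each from 1 array against 1 control array, so the difference was not tested. The pancreas list had a median change of -3.35 in wild type and 2.01 in knockout. Among digestive enzymes, Prss2 changed by -6.20 in wild type and 4.75 in knockout, Ctrb1 by -5.43 and 4.51, Cela2a by -4.35 and 2.64, 2210010C04Rik by -3.89 and 2.79, and Ctrl by -2.81 and 2.29. Of pancreatic lipase partners and related genes, Clps changed by -4.30 and 2.01, Pnliprp1 by -3.35 and 2.23, and Reg2 by -2.51 and 3.59, wild type first. The reverse order was found in Lcn5 (2.62 in wild type and -4.98 in knockout), Cuzd1 (3.10 and -3.95) and Cyb561 (2.18 and -3.88). None of these genes is among those called.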

How the results depend on the processing

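The counts of genes that rose and fell, 396 and 508, were 103 and 126 without the filter on dim probe sets, 123 and 157 without both 3-day arrays, and 0 and 0 in a fit of the 4 arrays alone, where the smallest limma adjusted p was 0.106 and the unadjusted p was under 0.05 for 1662 genes. A lower floor, at the 25th percentile, gave 324 falls. Leaving out 1 array at a time gave 0 to 535 rises and 0 to 562 falls. None of the 319 called genes chosen by the naming rule reversed, and other genes were not checked for this. That was in part fixed in advance, because the 319 were chosen as called genes with the same direction in both genotypes. Leaving out infusion arrays also does not alter the estimated change at 8 hours. In the fit of the 4 arrays alone all 319 kept their direction without passing. The other settings kept both counts within 1.5 times. Counts of 2-fold changes in each genotype ran from 327 to 417 up and from 287 to 362 down. The median kept its sign under every alternative run in 36 of 70 lists. Genotype pairs the arrays in every fit; the labels carry no replicate numbers to pair by. The array distributions were equalised before deposit, so the data cannot show a shift of all genes. Values near the floor of 171 limit what can be seen of low genes.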
